A study of Mus musculus with 8 samples.

Results

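The insulin and IGF receptors, their adaptors and the ligand IGF1 were followed in thoracic perivascular fat, the mostly brown-like fat that surrounds the thoracic aorta, of RictoraP2KO mice and of Rictorfl/fl mice, the controls. The 7 genes are Insr, Igf1r, Irs1, Irs2, Grb10, Grb14 and Igf1, out of 18782 genes that had a probe set of their own on the array. Each gene was taken by its symbol, from probe sets that the platform annotation gives to that gene alone. Where a gene had more than 1 such probe set, as Insr did, the one with the highest mean over the arrays was used. All 7 were measured, and none was filtered out.

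The tissue came from male mice aged 17 to 22 weeks that had been starved overnight and were killed at 9 am, with 4 arrays per group. In the name RictoraP2KO, aP2 is the older name of Fabp4, a gene of fat cells that macrophages and capillary endothelium also express, and the series title places the deletion in fat and brain. Control mice carry the floxed Rictor allele without the deletion. Rictor is the defining subunit of mTOR complex 2, which acts on Akt once the insulin receptor is active. The study asked how its loss in fat and brain affects clock gene expression and blood pressure.

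Insulin and IGF1 bind related receptor tyrosine kinases, the products of Insr and Igf1r. The active receptors phosphorylate the adaptors IRS1 and IRS2, which recruit PI3 kinase and so lead to Akt. GRB10 and GRB14 bind the active receptors and restrain them. Insr and Irs2 are textbook targets of FOXO factors, which Akt keeps out of the nucleus, so their transcripts are commonly followed as readouts of feedback in this pathway. Locally made IGF1 comes from fat cells, stromal cells and macrophages.

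The promoters of the adaptor genes are shown because Irs2 had the smallest p-value of the 7 genes and Irs1 is its close paralog. The sequences are those of RefSeq on GRCm38.p6, from 250 bases before to 50 bases after the annotated start. Of the 7 genes, 6 had an entry: Igf1r, Irs1, Irs2, Grb10, Grb14 and Igf1. Capitals mark CACGTG, the E-box bound by basic helix-loop-helix factors such as CLOCK with BMAL1, and TGTTTTG, the core of insulin response elements bound by FOXO factors, on either strand. The Irs2 sequence is chr8:11008880-11009179 and the Irs1 sequence is chr1:82291390-82291689, both on the minus strand and both written 5′ to 3′ with the gene.
Irs2: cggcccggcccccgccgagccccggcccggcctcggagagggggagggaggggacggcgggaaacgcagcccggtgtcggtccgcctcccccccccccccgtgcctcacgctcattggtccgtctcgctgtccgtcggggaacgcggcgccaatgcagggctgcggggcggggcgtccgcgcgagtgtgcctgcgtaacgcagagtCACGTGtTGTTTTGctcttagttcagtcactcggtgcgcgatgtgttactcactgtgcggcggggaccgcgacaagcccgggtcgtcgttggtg
Irs1: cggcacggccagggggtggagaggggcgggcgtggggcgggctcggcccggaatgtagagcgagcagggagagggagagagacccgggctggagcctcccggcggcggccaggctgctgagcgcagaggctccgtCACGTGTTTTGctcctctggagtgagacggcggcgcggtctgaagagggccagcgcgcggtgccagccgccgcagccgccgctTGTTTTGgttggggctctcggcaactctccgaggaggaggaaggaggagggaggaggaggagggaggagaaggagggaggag

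Both adaptor promoters held 1 E-box beside an insulin response element core. In Irs2 the E-box lay at -44 to -39 from the start and the core at -37 to -31, with 1 base between them. In Irs1 the E-box lay at -115 to -110 and overlapped the core at -111 to -105, and a further core lay at -32 to -26. The longest runs shared by the 2 promoters were 10 bases long, gtcacgtgtt, which holds the E-box, and tgttttgctc, which holds the insulin response element core. How often other pairs of promoters share runs of this length was not counted. Neither motif occurred in the promoters of Igf1r, Grb10, Grb14 or Igf1. Of 32851 promoters of this length, 7.15% held CACGTG, 6.28% held TGTTTTG on either strand and 0.408% held both. GTAAACA, the FOXO consensus (3.65% of promoters), and TCACNCCAC, a sterol regulatory element (1.24%), were not found in the 6 genes' promoters. The motifs were chosen with these promoters in view, and a match describes the letters, not a bound site.

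Expression is given as the authors' deposited log2 RMA signal, in which 1 unit is a doubling, and differences are RictoraP2KO minus control with their standard error (SE). Tests are limma's moderated test over all 28371 probe sets, two-sided, with Benjamini-Hochberg adjustment. Beside it stands an exact permutation test, two-sided, that enumerates all 70 label assignments and cannot give a p below 0.0286. The number of arrays limits the precision. The Rictor signal was 6.80, 6.66, 6.60 and 6.68 in the arrays labelled RictoraP2KO, against 6.49, 6.56, 6.49 and 6.61 in the arrays labelled control. The means differed by 0.145 (SE 0.063; limma adjusted p = 0.685, unadjusted p = 0.0479; exact permutation p = 0.0571). The Rictor signal was thus not lower under the RictoraP2KO label but slightly higher, without passing the adjusted test. The position of the deletion is not stated, so every direction below rests on the labels.

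The tissue label fits the fat markers on every array. Adipoq, which encodes adiponectin, lay between 10.8 and 11.1 over the 8 arrays and Ucp1, the uncoupling protein of brown fat, between 11.32 and 12.01. Signal of other tissues was uneven. RictoraP2KO replicate 2 stood at 1.24 for skeletal muscle markers and 1.69 for cardiac muscle markers, as mean log2 value of the list minus its mean over the 8 arrays. The cardiac list also varied over the other arrays, from -1.32 in RictoraP2KO replicate 1 to 0.74 in control replicate 2. Control replicate 2 stood at 2.15 for lung epithelial markers and control replicate 3 at 1.18 for neuron and Schwann cell markers. For the receptors, the adaptors and the ligand, the differences between the groups are given with and without these 3 arrays. The correlations and the differences of other genes are not given without all 3 of them. In bulk tissue, fewer cells of a type and less RNA per cell cannot be told apart.

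None of the 7 genes passed the adjusted threshold of 0.05, where 0.00352% of all probe sets did. Their limma adjusted p-values ran from 0.651 to 0.958. In the arrays labelled RictoraP2KO the mean was above that of the control arrays for 6 genes and below it for Grb14. Irs2 alone had an unadjusted p under 0.05, 1 gene of 7, where 7.27% of probe sets did in either direction, 3.85% in the higher and 3.42% in the lower direction. In each of the 7 genes the groups overlapped, while 4.25% of all probe sets had groups that did not, 2.08% with the RictoraP2KO arrays higher and 2.17% with them lower. The median difference was 0.19 over the 7 genes and -0.01 over the 18782 genes, of which 46.8% lay above 0. The mean of each of the 7 genes lay above the median of the probe set means, 3.77.

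**Figure D1:**
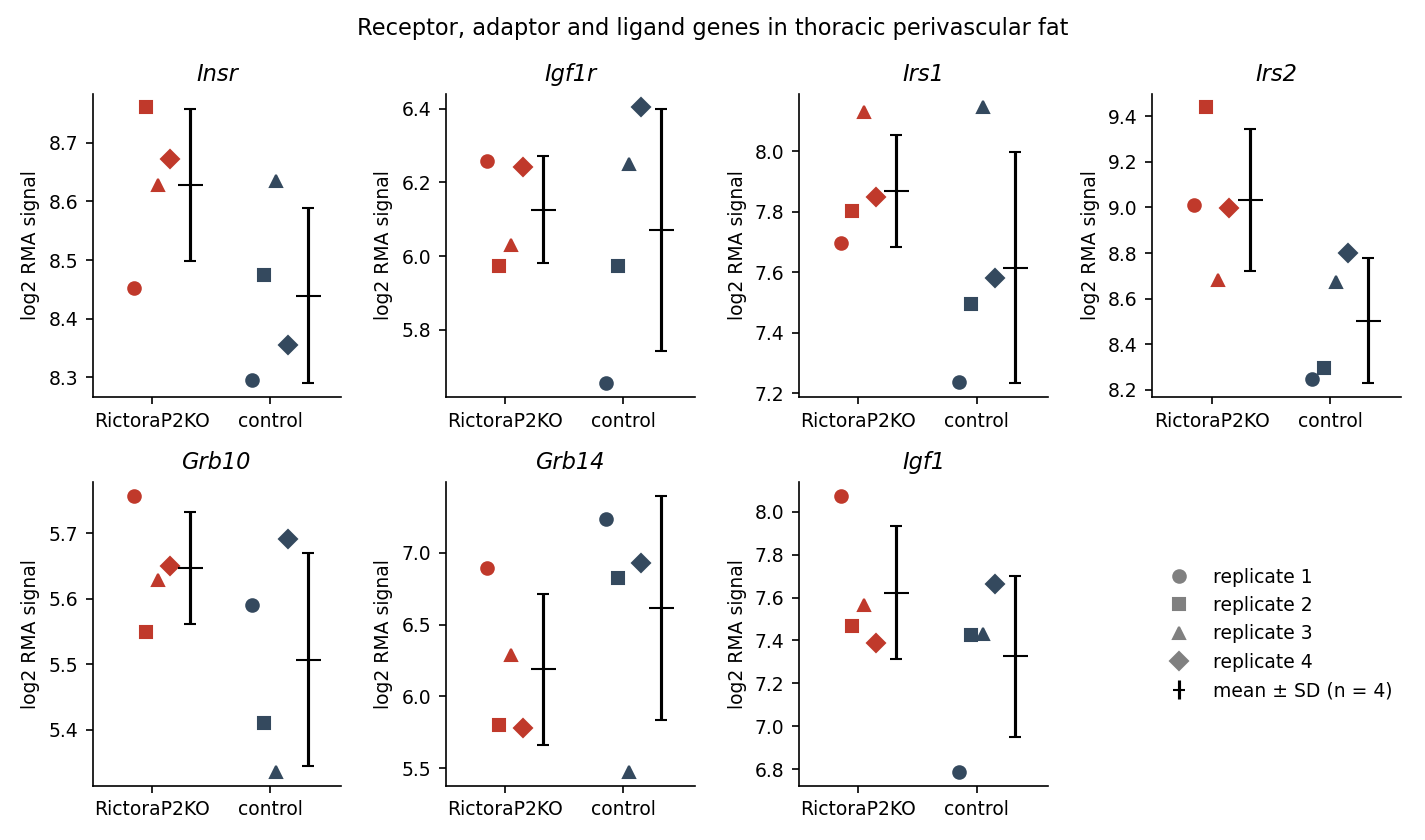
Log2 RMA signal (vertical axes, a separate scale for each gene) of the 7 genes in 4 RictoraP2KO arrays (left in each panel) and 4 control arrays (right); symbols give the replicate number and the black bars the mean ± SD (n = 4). Of the RictoraP2KO arrays, 3 lie above every control array for Irs2, while the Grb14 values run from 5.48 to 7.24 and the groups overlap in every panel.

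Among the receptors, Insr encodes the insulin receptor. Its signal was 8.45, 8.76, 8.63 and 8.67 in the RictoraP2KO arrays, against 8.29, 8.47, 8.63 and 8.36 in the control arrays. Replicate 1 was the lowest of the RictoraP2KO arrays and control replicate 3 the highest control, level with RictoraP2KO replicate 3. The means were 8.63 ± 0.13 and 8.44 ± 0.15 (SD, n = 4 each), a difference of 0.19 (SE 0.094), or 1.14-fold with a 95% interval from 0.983 to 1.32. It did not pass (limma adjusted p = 0.726, unadjusted p = 0.0763; exact permutation p = 0.143).

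The second Insr probe set put the 8 arrays in the same order. It read 8.19, 8.46, 8.40 and 8.41 in the RictoraP2KO arrays, against 8.06, 8.30, 8.40 and 8.16 in the control arrays. Its means differed by 0.13 (SE 0.093; limma adjusted p = 0.790). For the first probe set, the difference ran from 0.14 (without control replicate 1, limma adjusted p = 0.807) to 0.25 (without control replicate 3, limma adjusted p = 0.712) over the 8 omissions of 1 array. The unadjusted limma p was under 0.05 without control replicate 3 (0.0216), without RictoraP2KO replicate 1 (0.0285) and without the 3 arrays with signal of other tissue (difference 0.26, 0.0381), and was above it in the other 6 omissions. The limma adjusted p over all alternatives was at least 0.635.

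Igf1r encodes the receptor for IGF1. It read 6.26, 5.97, 6.03 and 6.24 in the RictoraP2KO arrays, against 5.65, 5.97, 6.25 and 6.40 in the control arrays. The control arrays held both the lowest and the highest value, and the RictoraP2KO arrays lay between them. The means were 6.13 ± 0.15 and 6.07 ± 0.33 (SD, n = 4 each), a difference of 0.06 (SE 0.156; limma adjusted p = 0.958; exact permutation p = 0.83). The interval ran from -0.30 to 0.41. The difference was -0.08 without control replicate 1, 0.17 without control replicate 4 and 0.15 without the 3 arrays with signal of other tissue.

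The receptors were also compared with each other within each array, as the Insr value minus the Igf1r value. With its mean over the 8 arrays set to 0, this quantity averaged 0.07 ± 0.25 in the RictoraP2KO arrays and -0.07 ± 0.30 in the control arrays (SD, n = 4 each). The difference of 0.13 (SE 0.195) was smaller than the spread within either group (exact permutation p = 0.543). Without the 3 arrays with signal of other tissue this difference was 0.11.

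Of the adaptors, Irs2 encodes insulin receptor substrate 2. Its signal was 9.01, 9.44, 8.68 and 9.00 in the RictoraP2KO arrays, against 8.25, 8.29, 8.67 and 8.80 in the control arrays. RictoraP2KO replicates 1, 2 and 4 lay above all control arrays, and replicate 3 lay between control replicates 3 and 4. The means were 9.03 ± 0.31 and 8.50 ± 0.28 (SD, n = 4 each), a difference of 0.53 (SE 0.178), or 1.44-fold with an unadjusted 95% interval from 1.09 to 1.91. It did not pass the adjusted test (limma adjusted p = 0.651, unadjusted p = 0.0160; exact permutation p = 0.0571).

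The highest Irs2 value belonged to RictoraP2KO replicate 2, the array with the highest skeletal and cardiac muscle signal. Without it the difference was 0.39 (limma adjusted p = 0.824, unadjusted p = 0.0373). Over the 8 omissions of 1 array the difference ran from 0.39 to 0.64, with unadjusted limma p-values from 0.00577 to 0.0465. Without the 3 arrays that carried signal of other tissue it was 0.37 and the unadjusted limma p was 0.103.

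Irs1 encodes insulin receptor substrate 1. It read 7.70, 7.80, 8.13 and 7.85 in the RictoraP2KO arrays, against 7.24, 7.50, 8.15 and 7.58 in the control arrays. Control replicate 3 was the highest array of all, and the other control arrays lay below all RictoraP2KO arrays. The means were 7.87 ± 0.19 and 7.62 ± 0.38 (SD, n = 4 each), a difference of 0.25 (SE 0.181; limma adjusted p = 0.794; exact permutation p = 0.286). Without control replicate 3, the array with neuron and Schwann cell signal, the difference was 0.43 (limma adjusted p = 0.712, unadjusted p = 0.00848). Without the 3 arrays it was 0.48 (limma adjusted p = 0.969, unadjusted p = 0.0274). It was 0.13 without control replicate 1 (limma adjusted p = 0.899) and 0.17 without RictoraP2KO replicate 3 (limma adjusted p = 0.848).

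Within arrays, the Irs2 value minus the Irs1 value, centred as above, averaged 0.14 ± 0.46 in the RictoraP2KO arrays and -0.14 ± 0.30 in the control arrays (SD, n = 4 each). The difference of 0.27 (SE 0.272) lay within this spread (exact permutation p = 0.371), and without the 3 arrays it was -0.11. The adaptors were thus not shown to differ from each other in their response. Insr and Irs2 are also FOXO target genes. Both means were higher in the RictoraP2KO arrays without passing the adjusted test, as were those of Igf1r, Irs1, Grb10 and Igf1. A part of FOXO factors in these values was not tested.

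**Figure D2:**
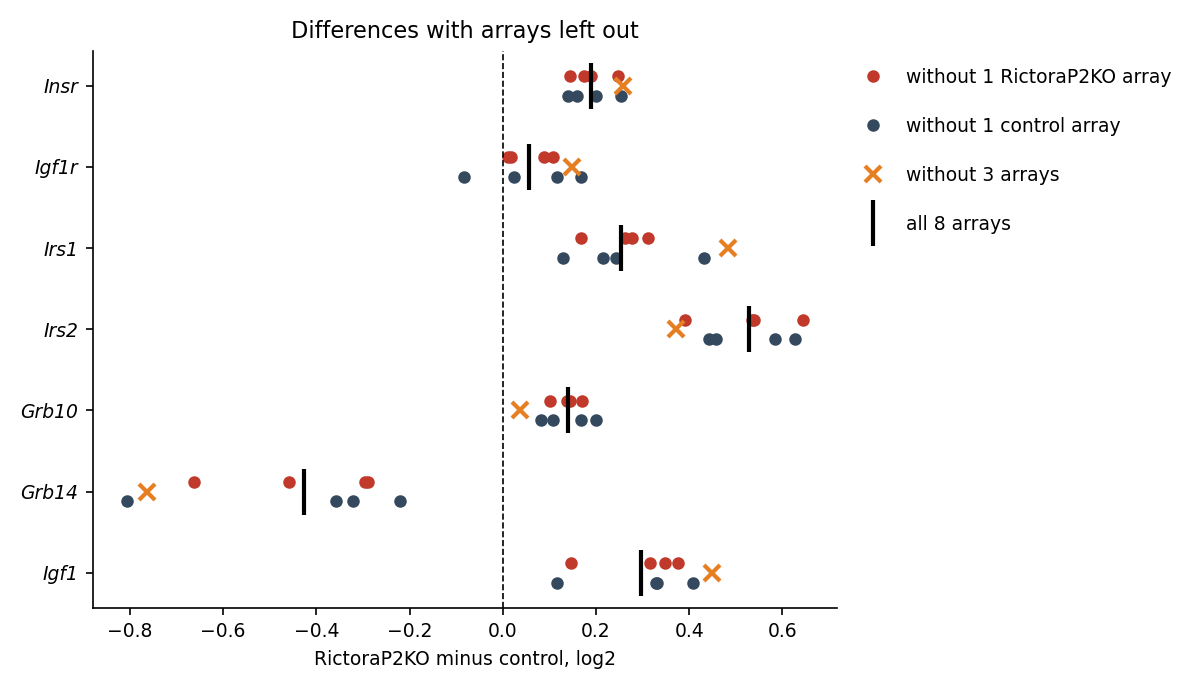
Difference between the groups in log2 signal (horizontal axis, RictoraP2KO minus control) for each of the 7 genes (vertical axis) with all 8 arrays (black bars), without each array in turn (circles, coloured by the group that lost an array) and without the 3 arrays that carried signal of other tissue (crosses). Irs2 stays between 0.37 and 0.64, Grb14 between -0.81 and -0.22, and the Igf1r value lies at -0.08 without control replicate 1.

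The inhibitory adaptors differed in how much they varied. Grb14 had a residual SD within groups of 0.67, larger than that of 98.5% of the probe sets with a mean above the median of the probe set means. It read 6.90, 5.80, 6.29 and 5.78 in the RictoraP2KO arrays, against 7.24, 6.83, 5.48 and 6.93 in the control arrays. The range over the 8 arrays was 1.76, with control arrays at both ends. The means were 6.19 ± 0.53 and 6.62 ± 0.78 (SD, n = 4 each), a difference of -0.43 (SE 0.391; limma adjusted p = 0.838; exact permutation p = 0.371).

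The lowest Grb14 value belonged to control replicate 3. Without it the difference was -0.81 (limma adjusted p = 0.712, unadjusted p = 0.0171), and without control replicate 1, the highest array, it was -0.22. Without the 3 arrays with signal of other tissue it was -0.76 (limma adjusted p = 0.969).

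Grb10, an imprinted gene whose product binds the insulin and IGF1 receptors, was steadier, with a residual SD of 0.13. It read 5.76, 5.55, 5.63 and 5.65 in the RictoraP2KO arrays, against 5.59, 5.41, 5.34 and 5.69 in the control arrays. Control replicates 2 and 3 lay below all RictoraP2KO arrays and control replicates 1 and 4 lay among them. The means were 5.65 ± 0.09 and 5.51 ± 0.16 (SD, n = 4 each), a difference of 0.14 (SE 0.089; limma adjusted p = 0.776; exact permutation p = 0.229). It was 0.08 without control replicate 3, 0.20 without control replicate 4 and 0.04 without the 3 arrays. Within arrays, the centred Grb10 value minus the Grb14 value averaged 0.28 ± 0.46 in the RictoraP2KO arrays and -0.28 ± 0.67 in the control arrays (SD, n = 4 each). The difference of 0.57 (SE 0.405) did not pass (exact permutation p = 0.229). Without the 3 arrays this difference was 0.8.

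Igf1 encodes the ligand. It read 8.07, 7.47, 7.56 and 7.39 in the RictoraP2KO arrays, against 6.79, 7.42, 7.43 and 7.66 in the control arrays. RictoraP2KO replicate 1 was the highest array and control replicate 1 the lowest, and the other 6 arrays lay within 7.39 to 7.66. The means were 7.62 ± 0.31 and 7.33 ± 0.38 (SD, n = 4 each), a difference of 0.30 (SE 0.206; limma adjusted p = 0.790; exact permutation p = 0.400). It was 0.15 without RictoraP2KO replicate 1, 0.12 without control replicate 1, 0.41 without control replicate 4 and 0.45 without the 3 arrays with signal of other tissue (limma adjusted p = 0.969).

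Among markers of cells that make IGF1, the lists differed. All 13 measured macrophage markers had a higher mean in the RictoraP2KO arrays, where 46.8% of the 18782 genes did. Their list mean ran from -0.25 to 0.39 there, against -0.25 to -0.0041 in the control arrays (exact permutation p = 0.114). Of the macrophage markers 12 had a mean above the median of the probe set means. This was not particular to macrophages. All 9 T cell markers (exact permutation p = 0.143) and all 8 B cell markers (exact permutation p = 0.314) were higher too. Of these, 1 T cell and 3 B cell markers had a mean above that median. Of the fibroblast markers, 9 of 10 had a higher mean in the RictoraP2KO arrays (exact permutation p = 0.200), of the adipocyte markers 6 of 11 (exact permutation p = 0.743) and of the brown adipocyte markers 2 of 9 (exact permutation p = 0.771). RictoraP2KO replicate 1, the array with the most Igf1, had the highest macrophage (0.39), fibroblast (0.35) and adipocyte (0.23) list means and the lowest brown adipocyte list mean (-0.60). Control replicate 1, the array with the least Igf1, stood at -0.0041, -0.05, -0.06 and 0.30 on these lists. Their part in the Igf1 values was not tested.

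**Figure D3:**
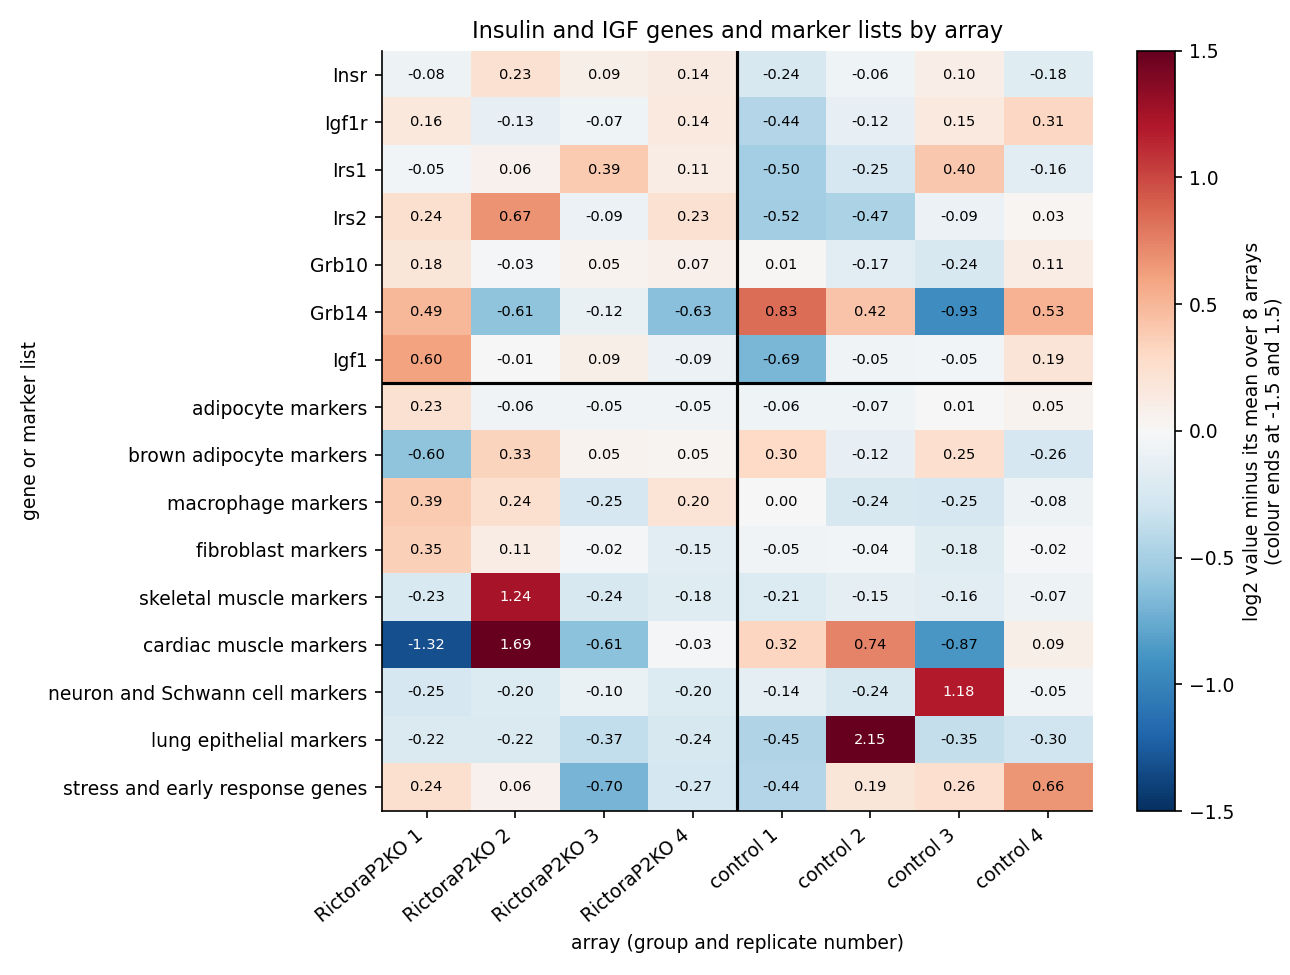
Log2 value minus its mean over the 8 arrays (colour and printed number) for the 7 genes (upper block) and for the mean of 9 marker and response lists (lower block), with the RictoraP2KO arrays on the left and the control arrays on the right. RictoraP2KO replicate 2 stands out in the muscle lists (1.24 and 1.69), control replicate 2 in the lung list (2.15) and control replicate 3 in the neuron list (1.18).

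Relations among the 7 genes over the 8 arrays were examined for all 21 pairs. Their exact permutation test, two-sided, differs from that between the groups. It enumerates all orders of the 8 arrays across both groups, so its p can lie below 0.0286. The closest was between Insr and Grb14, which ran in opposite directions (Pearson r = -0.909, exact permutation p = 0.00471; Spearman rho = -0.905, exact permutation p = 0.00456). Adjusted over the 21 pairs, neither passed (0.0990 for r and 0.0958 for rho by exact permutation). Without the 2 arrays farthest from the median of Insr, r was -0.883, and with the group means removed it was -0.940. The 8 arrays share 1 normalisation, and the relation was as close with the group means removed. This was not particular to Grb14. With the group means removed, Insr also ran against Grb10 (r = -0.883, against -0.270 with them kept). Grb10 then ran with Grb14 (r = 0.766, against 0.429 with them kept). The Grb14 values left a gap, with 3 RictoraP2KO arrays and control replicate 3 between 5.48 and 6.29 and the other 4 arrays between 6.83 and 7.24, and no correlation is given within sets of only 4 arrays.

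Irs1 also ran against Grb14 (r = -0.809, exact permutation p = 0.0163; rho = -0.857, exact permutation p = 0.0107; 0.172 and 0.113 adjusted over the 21 pairs by exact permutation). Without the 2 arrays farthest from the median of Irs1, r was -0.591. Insr and Irs1 ran together (r = 0.767, exact permutation p = 0.0284; rho = 0.714, exact permutation p = 0.0576; 0.199 and 0.403 adjusted by exact permutation), and r was 0.790 without the 2 arrays farthest from the median of Insr.

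Igf1r and Igf1 had r = 0.742 (exact permutation p = 0.0430; rho = 0.667, exact permutation p = 0.0831; 0.226 and 0.436 adjusted by exact permutation). Without control replicates 1 and 4, r was 0.355, so this relation rests on those arrays. Irs1 and Irs2, whose promoters share the runs shown above, had r = 0.418 (exact permutation p = 0.305; rho = 0.333, exact permutation p = 0.428), and r was 0.279 without control replicates 1 and 3.

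**Figure D4:**
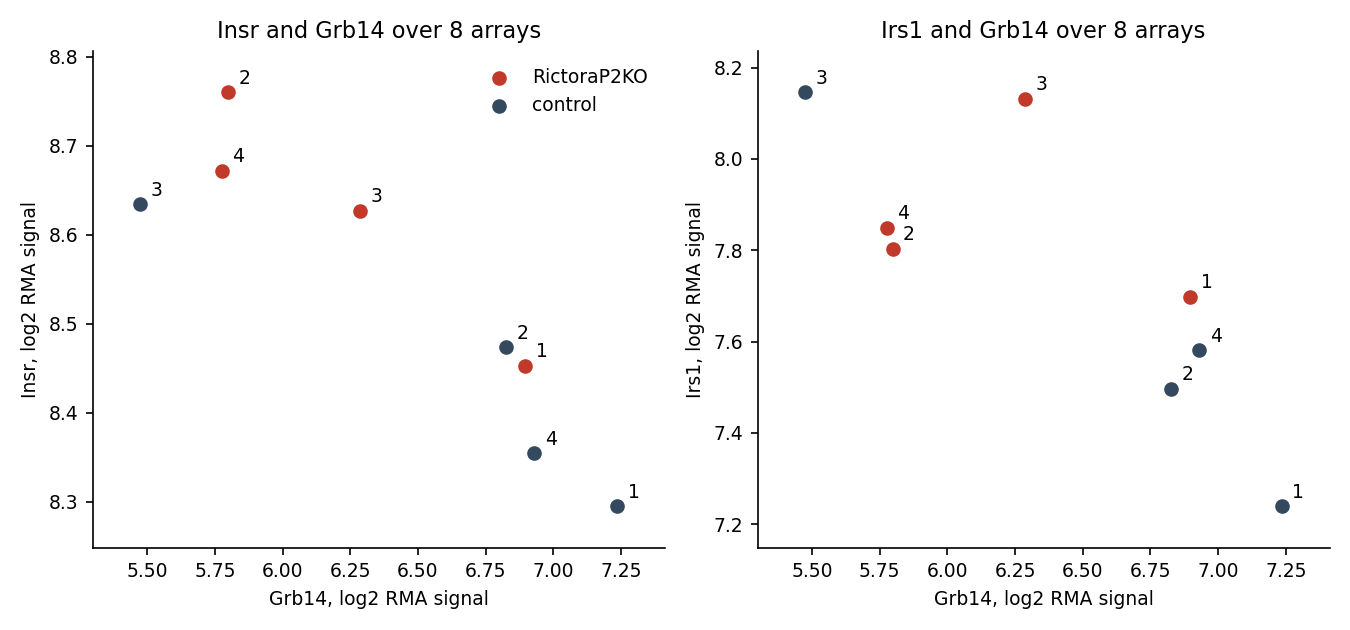
Insr (left) and Irs1 (right) log2 RMA signal (vertical axes) against Grb14 log2 RMA signal (horizontal axes) in the 4 RictoraP2KO and 4 control arrays, with replicate numbers beside the points. Both genes are lower where Grb14 is higher (r = -0.909 and -0.809), and control replicates 1 and 3 lie at the ends of the Grb14 axis.

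For each of the 7 genes, the 3 genes with the most similar pattern over the 8 arrays were taken from 10036 genes with a mean above the median of the probe set means. These are the highest of many correlations, so no test is given. For Insr they were Zbtb22 (Pearson r = 0.969), Sar1a, a GTPase of secretory vesicles (0.955), and Lpl, lipoprotein lipase of fat cells (0.953). For Igf1r they were Synm, the intermediate filament protein synemin (0.972), Snhg17 (0.960) and the ribosomal protein gene Rps25 (0.960).

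For the adaptors, Irs1 was followed most closely by Tmem53 (0.936), by Akt1, a kinase downstream of the IRS proteins (0.923), and by Tinf2, a component of the telomere complex (0.916). Irs2 was followed by Tppp3 (0.972), the ribosomal protein gene Rps26 (0.966) and the kinase gene Mapk6 (0.964). Of these, Tppp3 differed by 0.20 and Mapk6 by 0.25 between the groups, with limma adjusted p-values of 0.668 and 0.655.

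Grb10 was followed by Clec3b (0.937), by Cish, a SOCS family gene induced through STAT5 (0.935), and by the mitochondrial carrier gene Slc25a28 (0.934). Cish had the largest difference of the 21 genes, 0.94, and did not pass (limma adjusted p = 0.719). Without the 2 arrays farthest from the median of Grb10, its r was 0.675. Grb14 was followed by Ankrd27 (0.981), Zfp983 (0.973) and the phosphatase gene Dusp7 (0.972). Igf1 was followed by Rangrf (0.981), by P2ry13, a purinergic receptor of myeloid cells (0.978), and by the TGFβ co-receptor gene Tgfbr3 (0.964). Those of Igf1 lay between 0.724 and 0.821 without the 2 arrays farthest from its median.

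Other genes of the insulin and IGF system were read from a list of 60, of which 56 had a probe set of their own. None passed (limma adjusted p from 0.668 to 0.997). Of the differences, 30 lay above 0, where 46.8% of the 18782 genes did, and 26 below, and the median was 0.01. Unadjusted limma p-values under 0.05 belonged to 2 genes, both higher, and to 0 lower genes, where 3.85% of all probe sets were higher and 3.42% lower at that threshold. Of the 56 genes, 14 had a mean below the median of the probe set means. The groups did not overlap for 2 genes, where the background is 4.25%.

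The gene with the smallest p among them was Ptpn1, which encodes PTP1B, the phosphatase that removes phosphate from the insulin receptor. It read 6.38, 6.32, 6.34 and 6.43 in the RictoraP2KO arrays, against 6.22, 6.26, 6.26 and 6.05 in the control arrays, so all RictoraP2KO arrays lay above all control arrays. The means differed by 0.17 (SE 0.066; limma adjusted p = 0.668, unadjusted p = 0.0295; exact permutation p = 0.0286, the smallest possible). Dok5, an adaptor of the same family as the IRS proteins, differed by 0.20 (limma adjusted p = 0.685), with both means below the median of the probe set means.

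Other regulators of the receptors had differences of either sign. Ptpn11, which encodes the phosphatase SHP2, differed by -0.20, Ptpn2, a further phosphatase of the insulin receptor, by -0.19, and Cul7, part of a ubiquitin ligase that acts on IRS1, by -0.20. Shc1, an adaptor that leads from the receptors to Ras, differed by 0.15. The genes listed as negative regulators, Ptpn11 among them, had 4 of 15 differences above 0 (median -0.02). The adaptors had 12 of 21 (median 0.03), where 46.8% of the 18782 genes lay above 0. Grb7 (-0.13) and Shc2 (-0.12) had means below the median of the probe set means.

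Of the genes around the ligands, 9 of 12 binding proteins and proteases lay above 0, where 46.8% of the 18782 genes did, with a median of 0.06. Pappa, a protease that frees IGF1 from its binding proteins, differed by 0.30 (limma adjusted p = 0.732) and its paralog Pappa2, a dim probe set, by -0.12. Ghr, the growth hormone receptor, through which Igf1 is induced, differed by 0.22, and Stat5b, a transcription factor on that route, by -0.09 with no overlap between the groups. Igf2r, the clearance receptor for IGF2, differed by -0.02 (SE 0.069). Socs2, a growth hormone feedback inhibitor, differed by 0.61 (SE 0.394), Igfbp3 by 0.56 (SE 0.357) and Trib3 by 0.54 (SE 0.411). These 3 genes and Igf2r were picked after their values were seen. In Trib3, RictoraP2KO replicate 2 read 7.30 and the other 7 arrays between 5.08 and 5.47.

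**Figure D5:**
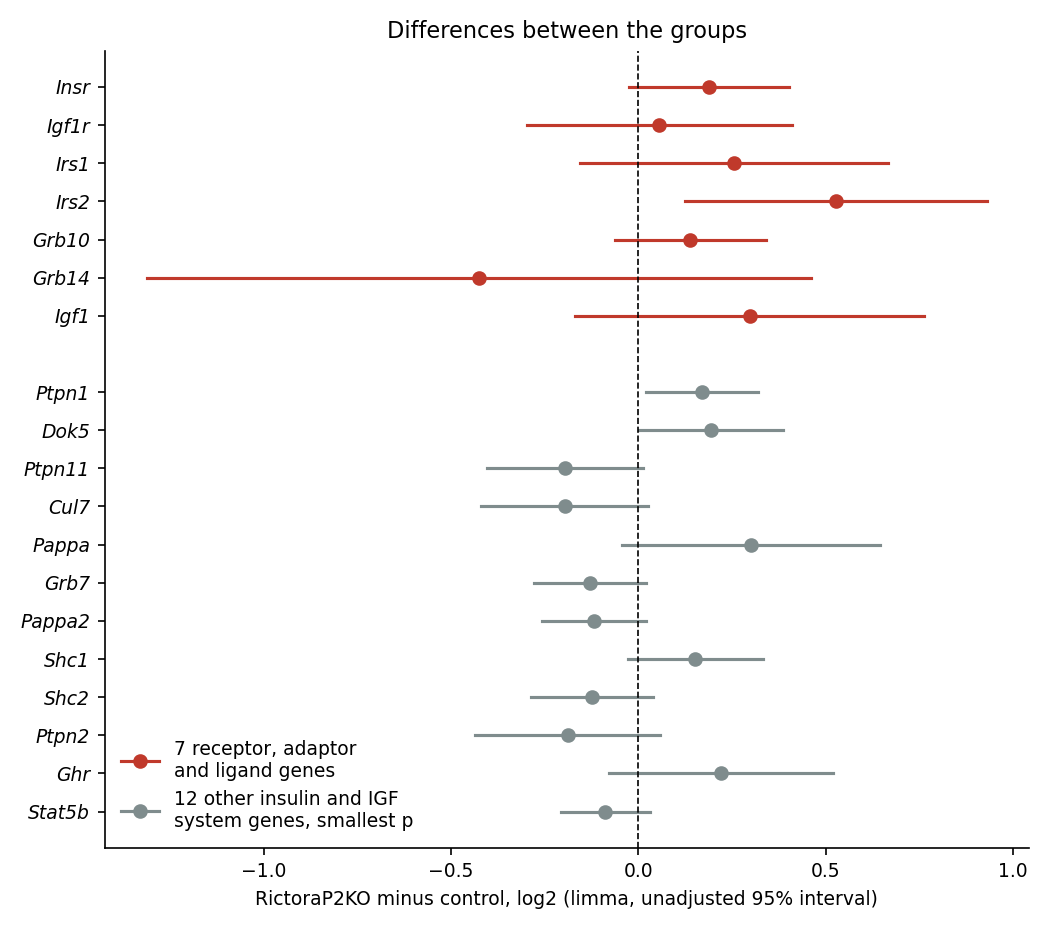
Difference in log2 signal (horizontal axis, RictoraP2KO minus control; points) with its unadjusted 95% limma interval (lines) for the 7 receptor, adaptor and ligand genes (red) and the 12 other insulin and IGF system genes with the smallest p-values (grey). The interval of Irs2 lies above 0, those of the other 6 genes include 0, and none of these genes passed after adjustment over all probe sets.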

How the data were processed

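The authors deposited 1 table of log2 values for 28371 probe sets on 8 Affymetrix arrays. The submitters' processing notes name RMA and version 1.10.2 of Affymetrix Power Tools. Every array had the same median, 3.76, so these values cannot show whether total RNA per cell differed. The annotation build was not given in the sources used here. The platform annotation gave 1 symbol to 21158 probe sets, and only those were given gene names. All probe sets entered the fit, without covariates.

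Groups were compared with limma 3.58.1 in R 4.3.3 (lmFit, eBayes, two-sided, Benjamini-Hochberg over all probe sets, threshold 0.05). On simulated data for RictoraP2KO against control, 200 of 28371 probe sets, drawn at random, were changed. Of changes of 0.5 on the log2 scale 55.4% were recovered, of changes of 1 89.9% and of changes of 2 98.3%. These are averages over all probe sets and do not give the recovery for the 7 genes. The simulated noise was normal and independent between probe sets, without the signal of other tissues that many probe sets share here. The shares also depend on the number of changed probe sets and need not hold for the real arrays. The residual SD of Irs2 exceeded that of 86.8% of probe sets with a mean above the median. For Igf1r, Irs1, Igf1 and Grb14 this share ran from 81.3% to 98.5%, and for Grb10 and Insr it was 36.9% and 42.2%. The labels do not state that each array is a separate animal, so the p-values reflect the spread among these arrays, which may be technical. The alternatives were blocking on the replicate number, a filter on dim probe sets, probe sets with 1 symbol alone, median centring, a further quantile normalisation, limma-trend, robust eBayes, array weights, the second Insr probe set, and omission of each array or of 3 arrays. The genes, lists and tests were chosen with earlier results of these data known. Named were the 7 genes, Rictor, the 12 other insulin and IGF system genes with the smallest p-values and, for each of the 7, the 3 most correlated genes, without predicted models, small RNAs and receptor segment genes. Adipoq and Ucp1 were named outside this rule as tissue markers, and Socs2, Igfbp3, Trib3 and Igf2r after their values were seen.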

Additional observations from a re-analysis of the deposited data

Results flagged for a closer look

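Single arrays standing apart from the other 3 of their group by Dixon's criterion were found in 7 of 114 groups of 4 checked, where chance gives about 1 in 20. None was among the 7 insulin and IGF genes. Ptpn2 read 6.40 in control replicate 2, against 6.66 to 6.71 in the other control arrays. Akt1 read 8.06 in control replicate 3, against 7.87 to 7.89 in the others, and this is also the control array with the most Irs1. Rangrf read 6.56 in RictoraP2KO replicate 1, against 6.38 to 6.40 in the others, the array with the most Igf1. The adipocyte list mean was 0.23 in RictoraP2KO replicate 1, against -0.06 to -0.05 in the others. The skeletal muscle list mean was 1.24 in RictoraP2KO replicate 2, against -0.24 to -0.18. The neuron and Schwann cell list mean was 1.18 in control replicate 3, against -0.24 to -0.05, and the lung epithelial list mean was 2.15 in control replicate 2, against -0.45 to -0.30.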

How the results depend on the processing

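Over 120 alternative values of the 7 differences, 1 turned in direction, that of Igf1r, which ran from -0.083 (without control replicate 1) to 0.167 when 1 array was left out. Of these values, 0 reached a limma adjusted p under 0.05. Many of the 120 could not have turned. Blocking on the replicate number, the filters on probe sets, median centring, limma-trend and robust eBayes left the differences unchanged. A further quantile normalisation hardly moved them. The values that could turn came mainly from leaving out arrays. Within arrays, Irs2 minus Irs1 was -0.11 without the 3 arrays with signal of other tissue, and Insr minus Igf1r ran from -0.0067 (without control replicate 4) to 0.235. The count of the 7 genes with an unadjusted limma p under 0.05, 1 with all arrays, was 2 without the 3 arrays (Insr and Irs1) and ran from 1 to 4 when 1 array was left out. It was 4 without control replicate 3 (Insr, Irs1, Irs2 and Grb14). It was 2 without RictoraP2KO replicate 1 (Insr and Irs2) and 2 without control replicate 4 (Irs2 and Grb10). For the other insulin and IGF system genes the count was 2. It was 1 without dim probe sets, with limma-trend and with array weights, and ran from 1 to 5 over the omissions of 1 array, with 5 without RictoraP2KO replicate 3 or control replicate 3 and 1 without RictoraP2KO replicate 1 or 2 or control replicate 1. Across all probe sets 1 passed, 0 passed without dim probe sets, with the replicate block or without the 3 arrays, 0 to 5 when 1 array was left out, and 2062 had an unadjusted p under 0.05. Over all probe sets the replicate number showed no pairing, since deviations of same-numbered arrays correlated between -0.15 and 0.09. A pairing that moves only few probe sets would not be seen in this way. With the replicate number as a block, the unadjusted limma p was 0.0379 for Irs2 and 0.0344 for Irs1, so 2 of the 7 genes were under 0.05. The cause of these changes was not tested.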
